A study of Mus musculus with 12 samples.

Results

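A group of 9 cell-surface receptors linked to melanoma cell states and to drug resistance were followed across histone marks in 2 mouse melanoma cell lines. Among 21887 protein-coding genes they were chosen by name: Axl, Tyro3, Mertk, Egfr, Erbb3, Met, Pdgfra, Pdgfrb and Ngfr. The first 8 encode receptor tyrosine kinases. Ngfr encodes the low-affinity neurotrophin receptor p75, which has no kinase domain, so "receptor kinases" does not describe it. Chromatin immunoprecipitation with sequencing (ChIP-seq) had been run on a Kmt2d wild-type (WT) line, 971, and a Kmt2d mutant line, 493, to ask what loss of KMT2D does to melanoma chromatin. Both lines were grown in the same serum-containing medium, with no treatment named. Each line gave 1 library per mark for H3K4me3, H3K27ac, H3K4me1 and H3K27me3, so 8 ChIP libraries and 4 inputs in all. The kind of mutation and the tumours of origin are not given in the labels, so Kmt2d genotype and cell line cannot be told apart. With 1 library per line and mark no difference has a replicate check, and no test was made.

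Receptor tyrosine kinases bind a ligand outside the cell, pair up and phosphorylate each other, which turns on the MAPK and PI3-kinase pathways. In melanoma, high AXL, EGFR, PDGFRB and NGFR are known from dedifferentiated or drug-tolerant cells, and ERBB3 and MET answer ligands made by neighbouring cells. H3K4me3 marks active or poised gene starts, H3K27ac active starts and enhancers, H3K4me1 enhancers, and H3K27me3 genes silenced by Polycomb. KMT2D is one of the enzymes that place H3K4me1 at enhancers.

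A mark was called at a gene end when a deposited peak lay within 1 kb of either end of the gene model. Peak bases lying no more than 50 kb from either end were summed as covered kb, and a 2-fold difference in them was called. The WT lists held 23154 H3K4me3, 26415 H3K27ac, 17373 H3K4me1 and 25394 H3K27me3 peaks. The mutant lists held 17987, 18751 and 3649 peaks for the first 3 marks. The mutant H3K27me3 list of 1300 regions was called against the WT H3K27me3 library, per its file name. It would therefore hold regions higher in line 493 and is not compared with the WT list. H3K4me3 was at a gene end of 56.4% of all genes in line 971 and of 56.7% in line 493. The H3K4me3 counts at cell markers below stand beside these shares. Of 10 melanocyte lineage genes, line 971 had H3K4me3 at the ends of 3 (Mitf, Pax3 and Pmel) and line 493 at the ends of 6, with Sox10, Mlana and Slc45a2 added. Tyr, Tyrp1, Dct and Kit had none in either line. Of markers of other cells, H3K4me3 in line 971 was at a gene end of 3 of 6 fibroblast, 1 of 5 macrophage, 1 of 4 endothelial and 2 of 4 keratinocyte genes. In line 493 the numbers were 2, 1, 1 and 2. At markers of these cells other differences were seen, and they ran both ways. Of 4 fibroblast genes with H3K4me3, 2 were at least 2-fold less covered in line 493 (4.49% of all genes with peaks). Of 6 with H3K27ac, 1 was 2-fold less covered (44.9%) and 3 were more (11.7%). H3K27ac was at a gene end of 2 fibroblast genes in line 971 alone (16.1% of all genes) and of 1, Dcn, in line 493 alone (6.84%). H3K4me1 was at a gene end of 3 fibroblast and 2 macrophage genes in line 971 and of none in line 493, against 4.21% and 2.27% of all genes. Ptprc, Csf1r, Adgre1, Itgam, Col1a2, Dcn and Lum had no H3K4me3 at a gene end in either line. The part of these markers in the results was not tested.

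The 250 bases before the start of Axl, Egfr, Met and Ngfr are shown because H3K4me3 covered these starts in both lines with widths that differed at Axl, Egfr and Ngfr and not at Met. They come from RefSeq on GRCm38.p6, the assembly of mm10, and run 5′ to 3′ on the strand of the gene. The places are chr7:25788734-25788983 (minus strand), chr11:16751953-16752202 (plus), chr6:17463707-17463956 (plus) and chr11:95587699-95587948 (minus). Capitals mark matches on either strand to the GC box (GGGCGG), the E-box (CACGTG), AP-1 (TGANTCA) and TEAD (GGAATG).
Axl: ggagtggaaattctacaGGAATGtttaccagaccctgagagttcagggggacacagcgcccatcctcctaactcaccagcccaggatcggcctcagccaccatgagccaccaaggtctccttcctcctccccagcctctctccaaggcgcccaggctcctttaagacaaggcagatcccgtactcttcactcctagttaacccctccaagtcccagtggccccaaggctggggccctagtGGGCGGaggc
Egfr: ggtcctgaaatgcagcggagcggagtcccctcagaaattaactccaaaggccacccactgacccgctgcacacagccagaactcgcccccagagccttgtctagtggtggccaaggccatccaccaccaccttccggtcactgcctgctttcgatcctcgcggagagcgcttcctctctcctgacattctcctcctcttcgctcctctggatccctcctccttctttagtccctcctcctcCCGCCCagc
Met: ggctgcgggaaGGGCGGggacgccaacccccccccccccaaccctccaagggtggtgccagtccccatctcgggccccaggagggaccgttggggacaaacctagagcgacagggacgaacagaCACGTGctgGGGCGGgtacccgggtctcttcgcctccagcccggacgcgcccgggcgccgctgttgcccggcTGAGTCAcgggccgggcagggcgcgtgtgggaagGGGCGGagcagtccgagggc
Ngfr: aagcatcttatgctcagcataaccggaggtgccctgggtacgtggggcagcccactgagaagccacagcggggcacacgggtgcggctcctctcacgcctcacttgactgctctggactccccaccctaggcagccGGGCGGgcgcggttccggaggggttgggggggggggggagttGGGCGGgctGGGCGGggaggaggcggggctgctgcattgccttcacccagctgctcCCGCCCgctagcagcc
Met and Tyro3 had the most CG dinucleotides, 24 each, a number that 11.98% of the 32851 promoters in the table reached. Ngfr had 16, Egfr 11, Mertk 7, Axl 5 and Pdgfra 4, against a median of 6. A GC box stood in 6 of the 7 promoters in the table, all but Pdgfra, and in 32.7% of all promoters. Ngfr held 4 matches, and Tyro3, Mertk and Met 3 each. An E-box was found at Met alone (6.02% of promoters), as was an AP-1 match (6.75%), and a TEAD match at Axl alone (12.6%). In these windows, extended by the 50 bases after the start, H3K4me3 lay over all 7 in both lines, against 41.6% of all windows in line 971 and 41.5% in line 493. H3K27ac, H3K4me1 and H3K27me3 lay over none of the 7. Among all windows, H3K27ac lay over 5.28% in line 971 and 3.08% in line 493, and H3K4me1 over 0.813% and 0.152%. H3K27me3 of line 971 lay over 4.204%, and regions of higher H3K27me3 in line 493 over 0.0183%. With shares this low, none of 7 does not set the receptors apart from other promoters. Erbb3 and Pdgfrb were not in that table.

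H3K4me3 was at a gene end of 8 members in line 971 and of 9 in line 493, and at 8 in both. Among all protein-coding genes the shares were 56.4% and 56.7%, with 55% in both, so the receptors as a group were marked in either line. The exception, Tyro3, was marked in line 493 alone (background 1.68%), which was a matter of distance. Its WT peak of 2.54 kb began 1.13 kb inside the gene model, and both lines had the peak over the annotated start. No member was 2-fold less or 2-fold more covered by H3K4me3 in line 493, against backgrounds of 4.49% less and 2.69% more. By any amount 6 of 9 were less covered (70.3% of all genes) and 3 more (29.6%). In lists cut to equal length by significance there was again none, against 2.68% less and 3.95% more. Covered kb over the 9 genes summed to 83.7 in line 971 and 77.6 in line 493.

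H3K27ac separated the lines more. It was at a gene end of 6 members in line 971 (Axl, Mertk, Egfr, Erbb3, Met and Pdgfrb) and of 1, Erbb3, in line 493, against 28.7% and 19.5% of all genes. That made 5 members with H3K27ac in line 971 alone and none in line 493 alone, where the background was 16.1% and 6.84% of genes. Erbb3 was the member with it in both, as were 12.6% of genes. The members named depended on the gene-end rule. Within 1 kb of the annotated start alone (7 members), line 971 had H3K27ac at Tyro3, Mertk, Egfr and Met, and line 493 at Tyro3. Within 0.5 kb of a gene end, Erbb3 had it in line 493 alone. At Axl, Mertk and Pdgfrb the peaks were also within 1 kb of the end of another gene, and such peaks were left out in a second count. Then 3 members had it in line 971 (18.7% of all genes) and 1 in line 493 (12.6%). Of these, Egfr and Met had it in line 971 alone, so 5 of 9 became 2 of 9 (11.2%). Erbb3 had it in both (7.51%), but at its upper gene end in line 971 and at its lower gene end in line 493. Covered kb was at least 2-fold less in line 493 at 4 of 9 members (Axl, Met, Pdgfra and Pdgfrb), close to the background share (44.9%). It was at least 2-fold more at 1, Ngfr, against 11.7%. The sums were 5.73 kb and 3.91 kb. By any amount 5 of 9 were less covered (72.6% of all genes) and 4 more (27.3%). In lists of equal length the sums were 3.49 kb and 3.91 kb. There the same 4 members were 2-fold less covered (background 33.2%), and Egfr and Ngfr more (20.2%).

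H3K4me1 was at no gene end of a member in either line, against 4.21% and 2.27% of all genes, 0.475% in both, 3.73% in line 971 alone and 1.79% in line 493 alone. Around the members it covered 19.5 kb in line 971 and 1.78 kb in line 493, and 25 of the 36 WT peaks lay inside the receptor genes. Of 8 members with any H3K4me1, 7 were at least 2-fold less covered in line 493 and Erbb3 was more. Among all genes with H3K4me1 71.9% were 2-fold less and 14% more covered, and 80.5% less and 19.5% more by any amount. The 2-fold losses near the receptors thus stood beside losses at most genes. In lists of equal length, 3649 peaks each, Axl was less covered (background 36.1%), Erbb3 more (50.8%), Mertk changed by less than 2-fold and the other 6 had no peak.

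**Figure D1:**
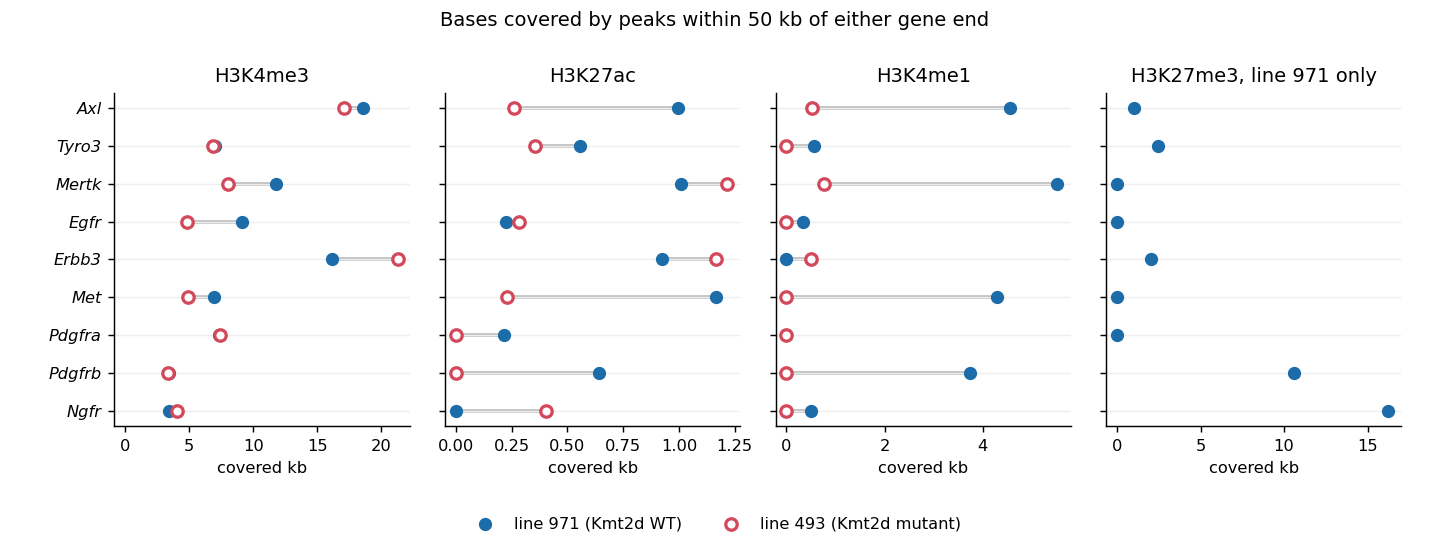
Covered kb (x axis, 1 panel per mark) within 50 kb of either gene end for each receptor gene (y axis), with filled points for line 971 and open points for line 493, 1 library each. H3K4me1 of line 493 sits at 0.757 kb or less at each gene, and H3K27ac runs both ways, with Met at 1.17 kb and 0.229 kb and Ngfr at 0 kb and 0.402 kb. H3K27me3 is given for line 971 alone.

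Most H3K4me3 peaks near the members were found in both lines, and few H3K27ac or WT H3K4me1 peaks were. For H3K4me3, 28 of 39 WT peaks (71.8%, exact 95% binomial interval 55.1% to 85.0%) overlapped a mutant peak, against 72.2% of the whole list. From the mutant side it was 28 of 30 (93.3%, 77.9% to 99.2%), against 91.8%. Both whole-list shares lay inside the intervals, which cover counting error only.

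For H3K27ac, 4 of 43 WT peaks (9.30%, exact interval 2.59% to 22.1%) and 4 of 27 mutant peaks (14.8%, 4.19% to 33.7%) overlapped one of the other line, against 8.65% and 12.2%. Within 1 kb the WT share was 32.6%, against 30.1%. The mutant share was 16 of 27 (59.3%, 38.80% to 77.6%), against 38.79%. Of these 16 peaks 6 were near Erbb3, and of the 27 peaks 11 were at the end of another gene and 1 at a member's own end. For H3K4me1, 3 of 36 WT peaks (8.33%, 1.75% to 22.5%) and 3 of 4 mutant peaks (75%, 19.4% to 99.4%) overlapped, against 6.63% and 31.7%. Apart from the mutant H3K27ac share within 1 kb, the whole-list shares named here lay inside the intervals. The intervals take each peak as independent, which peaks clustered at 9 genes are not. No difference from the whole list is therefore read from them. Of the WT H3K27ac peaks near the members, 18.6% (8 of 43, exact interval 8.39% to 33.4%) overlapped WT H3K4me1, against 8.95% of the whole list. In line 493 it was 1 of 27 (3.70%), against 2.21%.

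Axl, Tyro3 and Mertk form the TAM family, bound by GAS6 and protein S, and clear dying cells or dampen innate immunity in other tissues. Axl (chromosome 7, 25756500 to 25788924, minus strand) had the widest start peak of the 9 genes. H3K4me3 ran over 10.9 kb in line 971 (chr7:25780107-25791015), a width reached by 0.2% of peaks in that list. In line 493 the same stretch held a peak of 7.69 kb over the start (chr7:25782414-25790101). Across a short gap lay a separate one of 1.61 kb inside the gene (chr7:25780556-25782161, score 197). The score of the start peak was 3100 in both lines, but 18.6% of WT and 17.9% of mutant peaks carry exactly that value, so it does not show equal signal. Scores and folds rank peaks within a list, and a gap in them between the lines does not show a gap in signal. Of all 13155 promoter windows with H3K4me3 in both lines, 6.86% had a mutant to WT width ratio at or under that of Axl, 0.705, and the median ratio was 0.967. The ratio at Axl took the mutant peak over the start alone and left out the 1.61 kb peak, so it also reflects where calls were split.

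Axl had 7 H3K27ac peaks (0.996 kb) in line 971 and 2 (0.262 kb) in line 493. None overlapped between the lines, where 8.65% of WT and 12.2% of mutant H3K27ac peaks of the whole lists did. Within 1 kb of a peak of the other line lay 3 WT and both mutant peaks of Axl. The H3K27ac called at its gene end in line 971 was at the 3′ end, beside the end of Hnrnpul1, and not at the start. H3K4me1 covered 4.57 kb in line 971 and 0.512 kb in line 493. The single mutant H3K4me1 peak (chr7:25780606-25781117) lay inside a WT peak of 904 bp near the far edge of the wide H3K4me3 stretch, so that one H3K4me1 place in Axl was called in both lines. It overlapped H3K4me3 in both lines and H3K27ac in neither, so an enhancer is not shown there.

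Mertk (chromosome 2, 128698915 to 128803162) carried the most H3K4me1 of the 9 genes in line 971, 5.52 kb in 11 peaks, of which 10 were inside the gene. Line 493 had 2 of these places (0.757 kb), 39.6 kb and 41.0 kb into the gene, both overlapping WT peaks. Both lines had H3K27ac within 1 kb at the second place, in a WT peak of 98 bp and a mutant peak of 354 bp. The start peak of H3K4me3 was 3.38 kb (score 3111) in line 971 and 2.39 kb (score 1696) in line 493. Its width ratio of 0.708 was near that of Axl, and 7.10% of promoter windows with H3K4me3 in both lines were at or under it. WT H3K4me3 peaks 10.9 kb and 40.4 kb into the gene (1.18 kb and 1.67 kb wide) had no mutant counterpart. H3K27ac covered 1.01 kb and 1.21 kb, but inside the gene, away from its ends, it was 5 peaks in line 971 and 1 in line 493. The mutant total came mostly from 0.771 kb at the ends of Anapc1, Gm39931 and Tmem87b.

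Tyro3 (chromosome 2, 119797740 to 119818104) had nearly the same H3K4me3 at its start in both lines. The peak of H3K4me3 was 2.54 kb in line 971 (score 2153) and 2.58 kb in line 493 (score 1682). H3K27ac lay within that peak in both lines, over 141 bp in line 971 and 89 bp in line 493, within 1 kb of each other. In line 971 alone, a stretch 49.0 kb to 49.7 kb from the lower gene end held H3K27ac, H3K4me1 and a weak H3K4me3 peak (score 69.1). H3K27ac covered 0.555 kb and 0.355 kb, and H3K4me1 0.560 kb and 0 kb.

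Egfr and Erbb3 belong to the ErbB family, and Erbb3, whose own kinase is nearly inactive, signals through its partners after binding neuregulins. Egfr (chromosome 11, 16752203 to 16913907) had a narrower H3K4me3 peak at its start in line 493. H3K4me3 there was 3.04 kb wide with a score of 2672 in line 971 and 1.86 kb with a score of 800 in line 493. A width ratio at or under its 0.610 was found at 3.49% of promoter windows with H3K4me3 in both lines. WT peaks of 1.55 kb (score 461) and 0.979 kb (score 276), 14.2 kb and 17.8 kb into the gene, had no mutant counterpart. H3K27ac lay 0.2 kb past the start in line 971 (103 bp, 5.1-fold over input) and not in line 493. Line 493 had its own H3K27ac peaks 14.2 kb and 12.1 kb before and 14.2 kb after the start. The last of these lay where line 971 had H3K4me3 without H3K27ac. Covered kb of H3K27ac was 0.224 and 0.282, with no shared peak, where 8.65% of WT and 12.2% of mutant peaks of the whole lists overlapped.

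Erbb3 (chromosome 10, 128567523 to 128589635) was the member whose window had more of H3K4me3, H3K27ac and H3K4me1 covered in line 493. H3K4me3 covered 16.1 kb in line 971 and 21.3 kb in line 493. Part of this lay at other genes, since Esyt1, Zc3h10, Rpl41, Pa2g4 and Rps26 have ends in the window (9.60 kb and 10.9 kb). At the upper gene end the peak was 2.24 kb (score 2587) in line 971 and 2.80 kb (score 3100) in line 493. Line 493 had 2 further peaks inside the gene next to it, 1.42 kb and 1.27 kb wide (scores 368 and 239). Line 971 had H3K27me3 at and below that end, as 3 peaks of 0.669 kb, 0.241 kb and 0.462 kb. All 1.37 kb of it was covered by mutant H3K4me3 and 0.340 kb by WT H3K4me3. H3K27ac covered 0.924 kb and 1.17 kb, and H3K4me1 0 kb and 0.510 kb. Both lines had H3K27ac at the lower end, beside Pa2g4, in peaks within 1 kb of each other that did not overlap. The WT peak of 88 bp at the upper end had no mutant counterpart. Chromosome 10 held 92.8 mutant H3K27ac peaks and 36.8 mutant H3K4me1 peaks per 100 WT peaks, against 71.0 and 21.0 over all chromosomes, and the part of this in the Erbb3 values was not tested.

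Met (chromosome 6, 17463349 to 17573980), the receptor of hepatocyte growth factor, showed the widest gap in covered H3K27ac. Line 971 had 8 peaks (1.17 kb), 1 at the lower gene end and 7 further inside the gene, and line 493 had 2 (0.229 kb). H3K4me1 covered 4.30 kb in 8 WT peaks, all inside the gene, and 0 kb in line 493. In 4 places, 28.0, 39.0, 43.1 and 85.8 kb from the lower gene end, WT H3K27ac and H3K4me1 overlapped. The strongest of them was chr6:17502273-17502521, 249 bp with a 6.9-fold enrichment over input, a strength reached by 6.5% of its list. Line 493 kept H3K27ac within 1 kb at the last of the 4 and had a peak of its own 35.9 kb in (140 bp, 7.0-fold). The start itself differed little in H3K4me3, with 4.04 kb (score 3100) and 4.01 kb (score 2502). A WT H3K4me3 peak of 1.56 kb 15.9 kb into the gene, over WT H3K27ac, was missing from the mutant list.

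**Figure D2:**
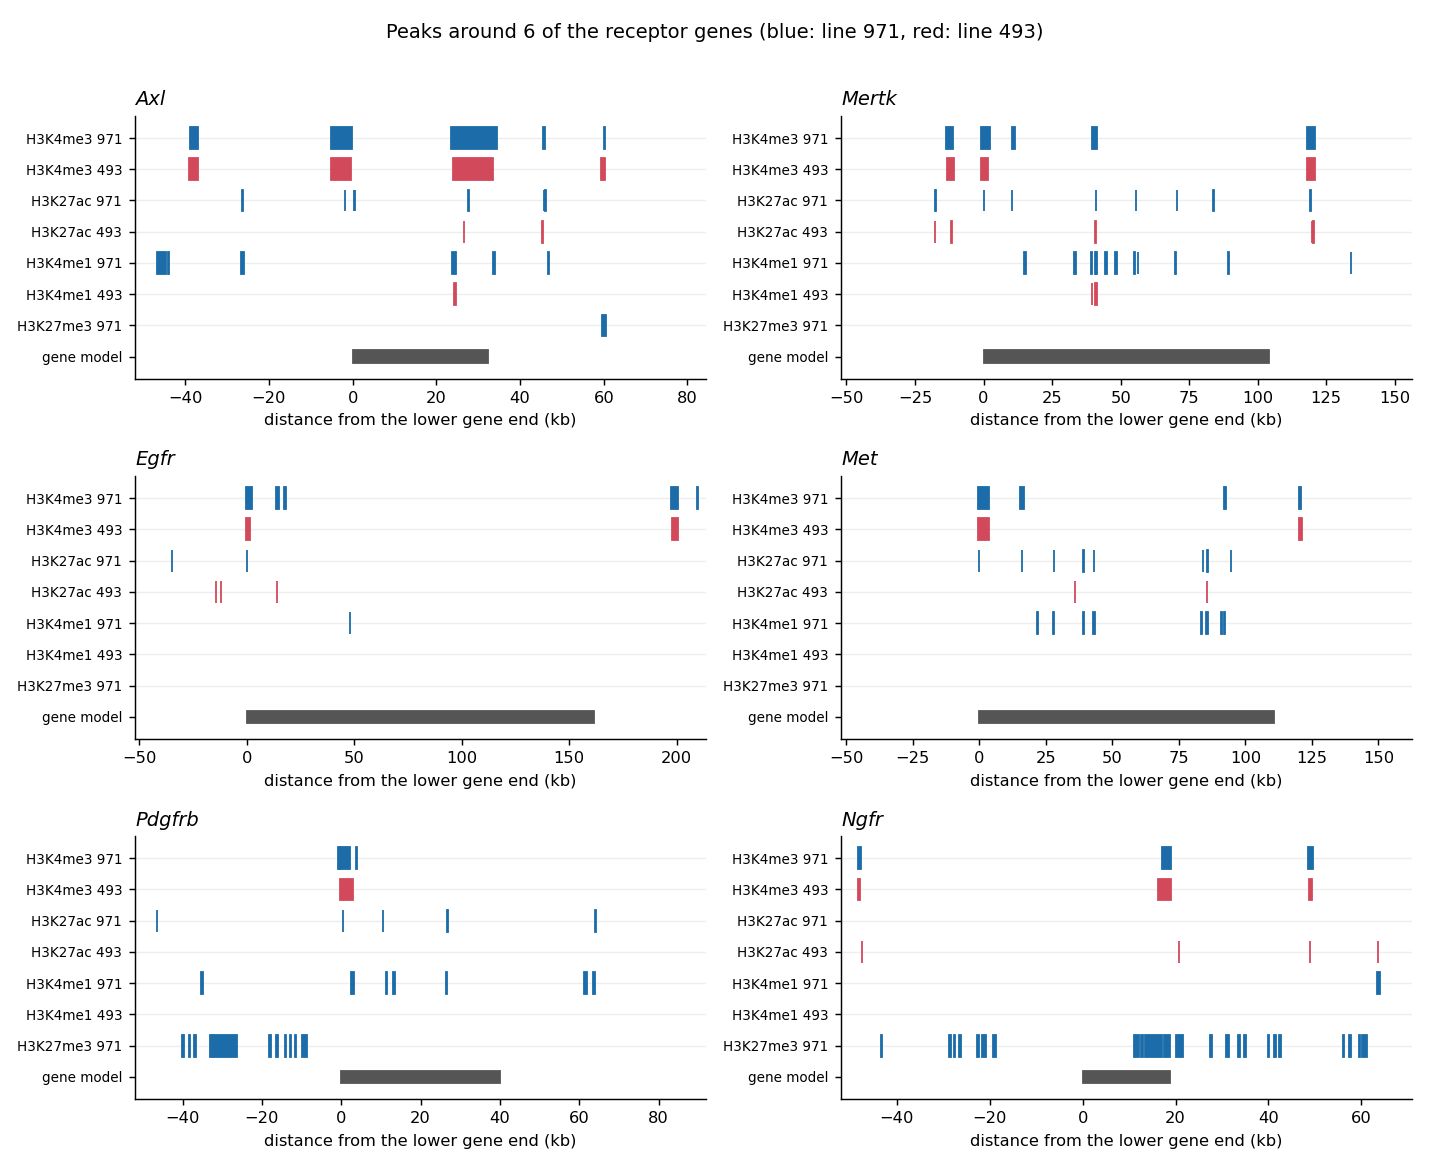
Deposited peaks within 50 kb of either gene end of 6 receptor genes, as boxes at their distance from the lower gene end (x axis, kb), 1 row per mark and line, blue for line 971 and red for line 493. The gene model is the grey bar, and Axl and Ngfr start at its right end, Mertk, Egfr and Met at its left. Met has 8 WT H3K4me1 peaks and no mutant one, Ngfr has H3K27me3 around its start, and the middle of Mertk, Egfr and Met lies outside the windows.

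Pdgfra and Pdgfrb encode the receptors of platelet-derived growth factors, known from mesenchymal and neural crest derived cells. Pdgfra (chromosome 5, 75151322 to 75198206) had a broad H3K4me3 domain over its start in both lines, 6.23 kb and 6.14 kb, each with a score of 3100. Peaks that wide made up 2.0% and 1.8% of the lists. A pair of smaller H3K4me3 peaks beside it were also found in both lines, so its H3K4me3 map was nearly the same, at 7.36 kb and 7.39 kb. H3K27ac differed, with peaks of 111 bp and 106 bp in line 971, one of them within the domain, and none in line 493. H3K4me1 and H3K27me3 were not called within 50 kb of Pdgfra.

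Pdgfrb (chromosome 18, 61045127 to 61085067) had H3K4me3 in both lines and H3K27ac and H3K4me1 in line 971 alone. The peak at the lower gene end was 2.53 kb (score 2232) in line 971 and 3.33 kb (score 2016) in line 493. Weak WT peaks of 0.511 kb (chr18:61044184-61044694) and 0.373 kb flanked the WT one (chr18:61044721-61047251), so covered kb was 3.42 and 3.33. All peaks at that end together made 3.04 kb in line 971 and 3.33 kb in line 493. H3K27ac had 5 peaks (0.643 kb) in line 971, 1 at that end (123 bp, 6.5-fold), and none in line 493. H3K4me1 had 7 WT peaks (3.74 kb), 4 of them inside the gene, and none in line 493. WT H3K27me3 covered 10.6 kb below the gene, 8.56 kb or more from its lower end, and 7.10 kb of it lay in peaks at the ends of other genes.

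Ngfr (chromosome 11, 95568818 to 95587698, minus strand), a neural crest and Schwann cell gene, had a wider H3K4me3 peak at its start, and H3K27ac in its window, in line 493. In line 971 its start peak of H3K4me3 was 1.77 kb with a score of 364, the lowest of the 9 genes. In line 493 it was 2.93 kb with a score of 2015. A width ratio as high as its 1.66 was found at 2.52% of promoter windows with H3K4me3 in both lines. Away from the start, H3K4me3 covered 1.68 kb and 1.12 kb. In all it covered 3.45 kb and 4.05 kb, under 2-fold, and 9.79 kb and 9.36 kb within 100 kb. WT H3K27me3 covered 16.2 kb around Ngfr in 23 peaks, including 6.49 kb of the gene, and 1.15 kb was under both WT marks. H3K27ac was not called in line 971 and had 4 peaks (0.402 kb) in line 493, 89 to 117 bp wide. The median width of that list was 107 bp, and no peak in it was narrower than 89 bp. The nearest of the 4 lay 1.9 kb before the start (chr11:95589553-95589641, 89 bp, 4.3-fold), and 85.0% of the list was at least as strong. One of the others lay over a WT H3K4me1 peak 63.7 kb from the lower gene end. H3K4me1 was 0.508 kb and 0 kb.

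**Figure D3:**
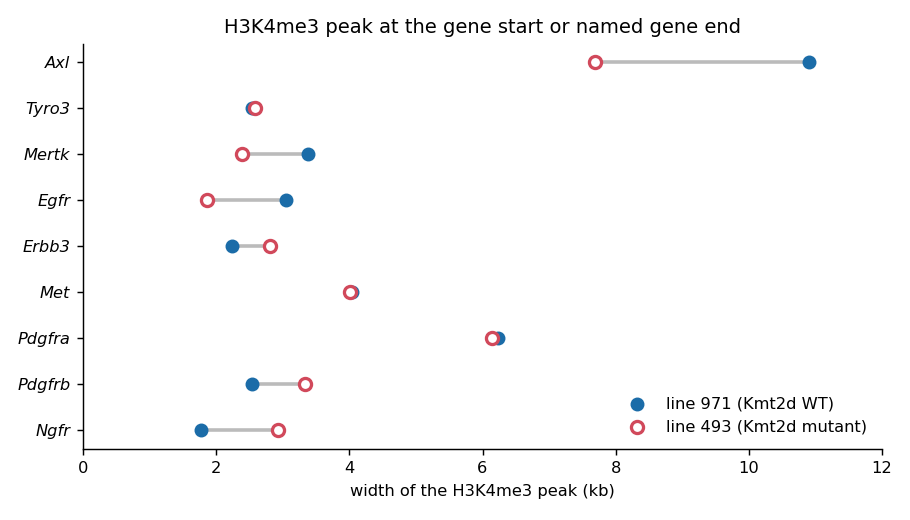
Width in kb (x axis) of the H3K4me3 peak over the start of each gene (y axis), or at the upper end of Erbb3 and the lower end of Pdgfrb, in line 971 (filled) and line 493 (open), 1 library each. By this 1 called peak, Axl, Mertk and Egfr are narrower in line 493, Erbb3, Pdgfrb and Ngfr are wider, and Tyro3, Met and Pdgfra nearly coincide. Separate peaks across short gaps are left out, of 1.61 kb at Axl in line 493 and of 0.511 kb at Pdgfrb in line 971. The same holds for peaks of 1.42 kb and 1.27 kb at Erbb3 in line 493. At Pdgfra it holds for 0.390 kb in line 971 and 0.466 kb in line 493.

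H3K27me3 at a gene end in line 971 was found at 2 of the 9 genes, Erbb3 and Ngfr, against 9.94% of all genes. Both also had H3K4me3 there, as did 4.88% of all genes. By share of the window, line 971 H3K27me3 ran from Ngfr (13.6%) over Pdgfrb (7.59%), Tyro3 (2.04%) and Erbb3 (1.67%) to Axl (0.748%), and was 0 at Mertk, Egfr, Met and Pdgfra. Within 50 kb it lay near 5 of the 9, against 42.4%. No region of higher H3K27me3 in line 493 lay that near to any member, and such regions lay near 5.77% of all genes and at the ends of 0.219%. For H3K4me1 the order in line 971 was Axl (3.45% of the window), Mertk (2.76%), Pdgfrb (2.67%) and Met (2.15%), with the other 5 under 0.5%. With 1 library each, no spread is known by which neighbours in these orders could be told apart.

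The same 8 gene-end states as at Axl, Mertk, Egfr, Met and Pdgfrb, which are H3K4me3 in both lines and H3K27ac in line 971 alone, were shared by 2847 other genes (13.0% of all genes). The state of Pdgfra was shared by 3549 (16.2%), that of Ngfr by 833 (3.81%), that of Tyro3 by 204 (0.932%) and that of Erbb3 by 20 (0.0914%). The state of Erbb3 includes WT H3K27me3, which was not found within 0.5 kb of its ends. By Euclidean distance of log2(covered kb + 1) over the 8 lists, the gene most like Axl was Ints11 (0.56), Hip1r was most like Mertk (0.53) and Ahcyl1 most like Met (0.41). Rasgrp1 was most like Ngfr (0.45), Fgf11 most like Erbb3 (0.46) and Zfp280c most like Pdgfra (0.12).

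Ligands, signalling partners and other receptors were examined to place the members. Of 22 ligand genes, 8 of 19 with H3K27ac and 12 of 15 with H3K4me1 were at least 2-fold less covered in line 493, and 2 and 1 more. For H3K4me3 it was 3 of 19 less and 0 more. Hbegf, an EGFR ligand, had H3K27ac and H3K4me1 at a gene end in line 971 alone, with H3K27ac of 1.10 kb and 0.317 kb. Its H3K4me3 was 16.2 kb and 8.55 kb. Pdgfc, a ligand of PDGFRA, had 11.9 kb and 3.97 kb of H3K4me3, and Pdgfb had 3.34 kb and 0.335 kb of H3K4me1. The TAM ligands differed in sign, with H3K4me3 of 1.09 kb and 1.48 kb at Gas6 and of 7.40 kb and 4.76 kb at Pros1, which was added after its values were seen. Ntf5, a ligand of neurotrophin receptors, had H3K4me1 in line 493 alone (0 kb and 2.10 kb).

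Of 16 adaptors, effectors, inhibitors and co-receptors, all had H3K4me3 at a gene end in both lines, against 55% of all genes. H3K27ac was 2-fold less at 7 of 15 and more at 1, and H3K4me1 less at 12 of 14 and more at 1. Lrig1, an inhibitor of ErbB receptors, had 11.6 kb of H3K4me1 in line 971 and 2.11 kb in line 493. Ptpn1, a phosphatase of receptor kinases, had 9.58 kb and 0 kb. Gab1, an adaptor of MET, had 16.1 kb and 8.07 kb of H3K4me3. Ptpn11, the phosphatase SHP2, had H3K4me1 in line 493 alone (0 kb and 0.328 kb).

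Among 50 other receptor tyrosine kinases, 32 had H3K4me3 at a gene end in line 971 and 34 in line 493, against 56.4% and 56.7% of all genes. WT H3K27me3 was at a gene end of 17, against 9.94%. Of those covered, 16 of 38 had at least 2-fold less H3K27ac in line 493 and 7 more, and 21 of 26 less H3K4me1 and 1 more. Epha2 had 19.9 kb and 9.24 kb of H3K4me3 and 8.30 kb and 0.736 kb of H3K4me1. Erbb4 ran the other way for H3K4me3, with 1.22 kb and 2.80 kb. Musk had 0.550 kb and 1.11 kb of H3K27ac. At Ephb4 (0.287 kb and 0.670 kb) and Ryk (0.0880 kb and 0.422 kb), H3K27ac was at a gene end in line 493 alone. The median difference in covered kb of H3K27ac, mutant minus WT, was −0.2 kb over the members, −0.133 kb over these kinases and −0.16 kb over all genes with peaks.

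**Figure D4:**
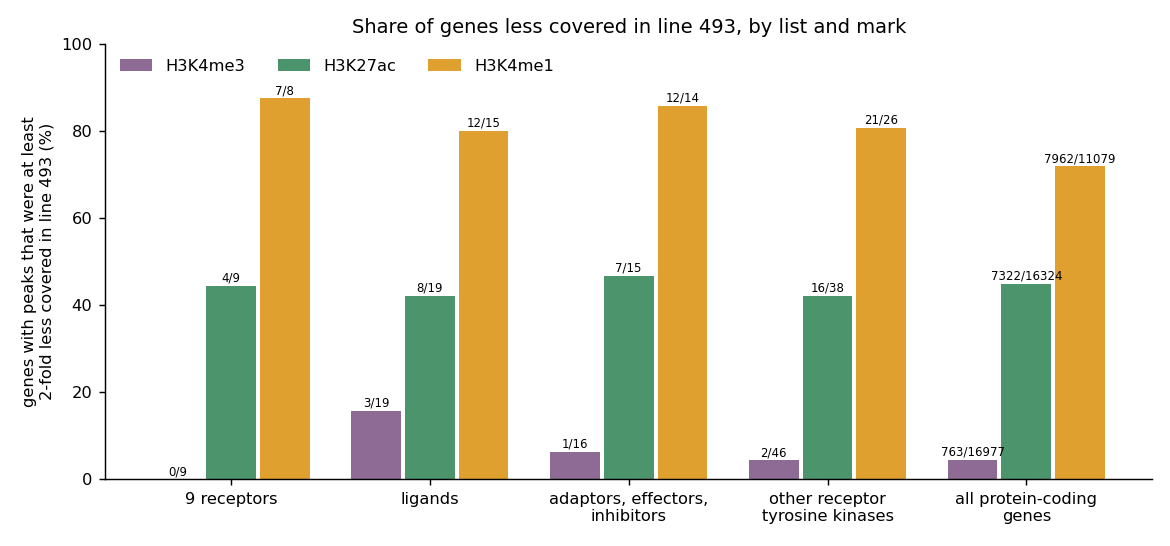
Percent of genes with peaks that were at least 2-fold less covered in line 493 (y axis, from 0), for the 9 receptors, 3 lists of related genes and all protein-coding genes (x axis), with 1 bar per mark and the counts above it. The H3K27ac bars of all lists stand near that of all genes (44.9%), and the H3K4me1 bars of the 4 lists above it (71.9%).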

How the data were processed

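Peak lists of 8 ChIP-seq libraries were used, 1 per line and mark; read files, inputs and depth were not analysed here. Each list came from 1 library. Per the submitters' processing notes, reads were handled with FastQC, MultiQC and MACS2 on build mm10. Versions, aligner and filters: not given in the sources used here. For each MACS2 peak the deposited columns hold a ratio, the fold over the control library, with −log10 p and −log10 q. H3K4me3 peaks came in an older MACS table, whose deposited score is log10 of p times −10. H3K27ac was called as narrow peaks, H3K4me1 and H3K27me3 as broad ones, per the file names. The deposited summit offset of the narrow peaks and the rescaled score of the MACS2 lists were not used. The control was the line's own input, per the file names, except for the mutant H3K27me3 list. These values belong to the authors and served only to rank and describe peaks within a list.

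Peaks on the 19 autosomes, X and Y were kept. Gene ends came from the RefSeq table of GRCm38.p6, which holds no strand, and all 9 genes matched. Starts and sequences came from the RefSeq promoter table, where 7 of the 9 matched. Interval arithmetic was done in Python 3.11.15 with numpy 2.4.6, pandas 2.3.3 and scipy 1.17.1 and tested on simulated data. Counterparts shared at least 1 bp. Like genes were ranked among genes with the same gene-end states, more than 200 kb away, with a pseudocount of 1 kb. Named genes of the other lists were those whose gene-end state differed between the lines or whose difference in covered kb was largest, with some left unnamed. The members and lists were chosen with earlier results of these data known. Alternatives covered distance, window, fold, list length and peak significance, and 1, leaving out peaks at the ends of other genes, was chosen after seeing the data.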

Additional observations from a re-analysis of the deposited data

How the results depend on the processing

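No paired analysis was possible because each line and mark has 1 library, and for the same reason no library could be left out. Of the recomputed counts and shares, 69 stayed within 1.5 times the value given (shares: within its exact interval) and 19 did not. H3K27ac at a gene end was found at 3 members in line 971 without peaks at the ends of other genes, and in line 493 at 2 within 2.5 kb and 0 in the more significant 50% of each list. The member could change where the count did not: at the transcription start alone the 1 member of line 493 was Tyro3 in place of Erbb3, which was not in the promoter table. H3K4me1 at a gene end was found at 2 members in line 971 within 2.5 kb, Axl and Pdgfrb. H3K27me3 at a gene end of line 971 was found at 1 member within 0.5 kb, at the transcription start alone (7 members) and in the more significant 50%, which is Ngfr in each case. Members 2-fold less covered by H3K4me3 in line 493 numbered 1, Egfr, within 20 kb, within 100 kb, with whole gene bodies, at a fold of 1.5 and in the more significant 50%, and members more covered numbered 1, Ngfr, in the more significant 50%. Members more covered by H3K27ac numbered 2, Egfr and Ngfr, within 20 kb and in lists of equal length. Members less covered by H3K4me1 numbered 1 in lists of equal length, and members more covered 0 within 100 kb. With a counterpart within 1 kb in place of an overlap, the H3K27ac shares were 32.6% in line 971 and 59.3% in line 493, against 30.1% and 38.8% of the whole lists. Of the values of single members, 95 kept their call with a difference changed by at most 50%, and 67 did not. No 2-fold difference of a single member changed sign. Smaller ones did at 1 or more settings: H3K4me3 at Tyro3, Pdgfra, Pdgfrb and Ngfr and H3K27ac at Tyro3, Mertk and Egfr, for example Mertk (−0.09 kb, mutant minus WT) in the more significant 50%, Egfr (−0.156 kb) within 100 kb and Tyro3 (0.165 kb) in lists of equal length. Read depth is unknown, so a missing peak shows only that none was called.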
